A study of Mus musculus with 12 samples.

Results

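The cells described here are enteric glia that carried little RNA of 8 genes linked to glial reactivity, chemokine release and antigen presentation. They were picked out of wells sorted for the surface protein CD49b, and 177 of the 436 retained CD49b+ wells met the limits (40.6%), out of 964 retained wells and 1150 wells in the whole table. The wells were chosen by these values: at least 1000 and under 10000 UMIs (unique molecular identifiers, 1 per captured transcript molecule), at least 500 detected genes and under 20% mitochondrial UMIs, with fewer than 2 UMIs of Gfap, fewer than 3 of Ccl2, Cxcl1 and Cxcl10 together, and fewer than 10 of the class II genes H2-Aa, H2-Ab1, H2-Eb1 and Cd74 together. These wells are called member wells, and the other 259 retained CD49b+ wells are called other wells. All values of the 8 genes are therefore a description with no test, and the share of member wells, which they define, was compared between treatments by plate.

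The cells came from adult C57BL/6 mice in which Dclk1-expressing cells carry tdTomato (Dclk1-tdTom+) after a 3 mg dose of tamoxifen, so that only cells in which the Dclk1 driver was active could be sorted. Both treatments shared this label, the tamoxifen and the dissection of the longitudinal muscle with its myenteric plexus (LMMP). Irradiated mice received 10.5 Gy 7 days after tamoxifen and were collected 3 days after radiation, with tamoxifen given at 8 weeks of age for replicate 1 and at 9 weeks for replicates 2 and 3. Mice in homeostasis were not irradiated and were collected 10 days after tamoxifen, which was given at 8 weeks for replicates 1 and 3 and at 9 weeks for replicate 2. Each treatment had 6 mice, pooled 2 to a sorting, and each pool filled 1 CD49b+ plate, so the unit of replication is the pool of a plate. In comparisons of treatments, p-values measure the spread between pools. Where member and other wells of a plate are compared, they measure how the difference within a plate varies between plates.

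Enteric glia surround the neurons of the gut plexuses, take up transmitters and ions, and supply trophic factors. Like astrocytes of the brain they can become reactive, a state classically marked by the intermediate filament protein Gfap, and they can release chemokines that draw in leukocytes. Class II molecules present peptides to CD4+ T cells and are induced by interferon gamma, also in glia.

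Among the 6 plates, the member wells numbered 7, 20 and 12 on the irradiated plates and 53, 46 and 39 on the homeostasis plates. They held 1013 to 3654 UMIs each, well under the upper limit, and their plate sums held 13230 to 47983 UMIs after irradiation and 99706 to 110827 in homeostasis. The median member well had 2245 UMIs, 1372 genes and 2.01% mitochondrial UMIs, against 2546 UMIs, 1509 genes and 2.02% in other wells. Since the limits are whole UMIs, a shallow well passed them more easily than a deep one. The 139 CD49b+ wells that were not retained all held under 1000 UMIs. Of the 96 well barcodes, 95 were used on all 12 plates, so a barcode names a position and not a cell. Every well had been sorted as 1 cell, no doublet caller was run, and 4 other wells with 11627 to 24748 UMIs lay above the limit.

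The member wells carried the markers of their glial label. Apoe, which encodes a lipid carrier of glia, had at least 1 UMI in 100% of member wells, and Sparc, which encodes a matrix glycoprotein, in 97.7%, when every well was thinned at random to 1000 UMIs. Hes1, a Notch target that keeps progenitors and glia undifferentiated, was detected in 58.2% of thinned member wells, and Sox10, the transcription factor of the neural crest glial lineage, in 30.5%. In the CD49b- wells of the same pools, sorted as neurons, the same shares were 4.17% for Apoe, 13.4% for Sparc, 2.08% for Hes1 and 0% of 528 wells for Sox10. Without thinning, at a median of 2245 UMIs in member wells and 7243 in CD49b- wells, Apoe was found in 100% and 17.6% of wells, Hes1 in 74% and 8.52%, and Sox10 in 49.7% and 0.379%. S100b, a calcium-binding protein of glia, reached 65.5% of thinned member wells and 3.6% of CD49b- wells.

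**Figure D1:**
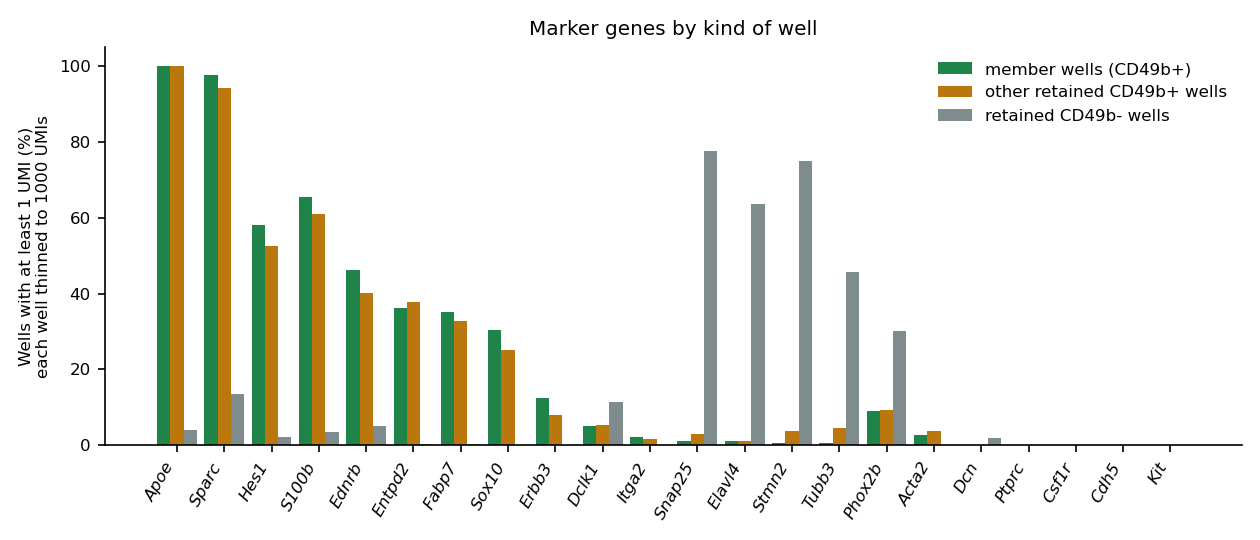
Share of wells (%) with at least 1 UMI of each marker gene after thinning every well to 1000 UMIs, in member wells, other retained CD49b+ wells and CD49b- wells (bars from 0). Apoe stands at 100% in both kinds of CD49b+ well and at 4.17% in CD49b- wells, while Snap25 stands at 1.13% in member wells and at 77.7% in CD49b- wells.

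Most markers of other cells were rare or absent in member wells. The neuronal genes Snap25 and Elavl4 were each found in 1.13% of thinned member wells, against 77.7% and 63.6% of CD49b- wells. No UMI of the macrophage genes Adgre1, Csf1r, C1qa, Ptprc or Tyrobp, of the fibroblast genes Pdgfra and Dcn, of smooth muscle Myh11, of endothelial Cdh5 or of Kit, the receptor of interstitial cells of Cajal, was found in any member well. Other members of the same lists were found. The lists with a UMI in member wells held 4 of 14 macrophage genes (Cd14 gave 103 of 106 UMIs), 2 of 10 fibroblast genes (the actin-severing Gsn gave 732 of 735), 7 of 10 smooth muscle genes (Myl9 gave 75 UMIs) and 6 of 10 endothelial and pericyte genes (Pecam1 gave 13 of 30). They also held 17 of 20 neuron genes (Gal gave 346 of 585), 2 of 3 genes of interstitial cells of Cajal (Etv1 gave 11 of 12), 4 of 9 epithelial and tuft genes (Lgr5 gave 152 of 155), 1 of 4 mesothelial genes and 0 of 8 lymphocyte genes. Without thinning, Acta2, the actin of smooth muscle, had a UMI in 9.04% of member and 2.84% of CD49b- wells, and Pecam1, an endothelial adhesion molecule, in 6.78% and 4.55%. The part of these UMIs in the results was not tested. The glial identity list had 26 of 29 genes with a UMI. Dclk1, whose driver labelled the cells, was detected in 5.08% of thinned member wells and 11.6% of CD49b- wells, and Itga2, which encodes CD49b, in 2.26% and 0%.

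The 8 genes of the rule were not absent from member wells. Gfap was at 0 UMIs in 104 member wells and at 1 in the other 73, and 47 of the 92 wells kept out by Gfap alone held 2 UMIs, just over the limit. The chemokine sum was 0 in 134 member wells, 1 in 29 and 2 in 14, and 3 of the 15 wells kept out by chemokines alone held 3. The class II sum had a median of 2 UMIs in member wells and 10 in other wells. Here 18 member wells held none, 14 held 8 or 9, and 15 of the 52 wells kept out by class II alone held 10 or 11. Of the 259 other wells, 176 reached the Gfap limit, 137 the class II limit and 50 the chemokine limit, and 98 reached at least 2 limits.

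Class II RNA still varied between plates within the narrow range the rule leaves. H2-Ab1, the beta chain of the I-A molecule, had 1890, 896 and 763 CPM (UMIs of the gene scaled to a common total of all UMIs of the plate sum) in the member wells of irradiated plates 1, 2 and 3, against 703, 361 and 572 CPM in homeostasis. The irradiated values all lay above the homeostasis values. Other wells had 3512, 1244 and 1399 CPM after irradiation and 1483, 900 and 1283 CPM in homeostasis. Gfap averaged 239 ± 99.3 CPM in irradiated and 168 ± 36.3 CPM in homeostasis member wells, and 1015 ± 423 and 861 ± 113 CPM in the other wells of the same plates (SD, n = 3 each).

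The first comparison asked how common these wells were after radiation. On the irradiated plates 7 of 69, 20 of 84 and 12 of 60 retained CD49b+ wells were members, which is 10.1% (95% Wilson interval 5 to 19.5%), 23.8% (16 to 33.9%) and 20% (11.8 to 31.8%). On the homeostasis plates 53 of 81, 46 of 70 and 39 of 72 were members, which is 65.4% (54.6 to 74.9%), 65.7% (54 to 75.8%) and 54.2% (42.7 to 65.2%). The highest irradiated plate lay below the lowest homeostasis plate, and the intervals, which cover counting error only, did not overlap. The mean was 18% ± 7.05 after irradiation and 61.8% ± 6.59 in homeostasis (SD, n = 3 each), a difference of -43.8 percentage points with a two-sided exact permutation p of 0.1, the smallest that 3 plates against 3 can give.

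The shares of wells at each limit of the rule are given as a description. Wells with 2 or more Gfap UMIs made up 57.1% ± 7.86 of retained wells after irradiation and 24.9% ± 4.59 in homeostasis, and no plates overlapped (SD, n = 3 each). Wells with 10 or more class II UMIs made up 50.6% ± 31.6 and 13.8% ± 6.21, with 87% on irradiated plate 1 against 29.8% and 35% on the other irradiated plates. The chemokine share was 12.3% ± 3.81 and 10.3% ± 7.04, and its plates overlapped. Median UMIs per retained well averaged 2469 after irradiation and 2445 in homeostasis over the plates.

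**Figure D2:**
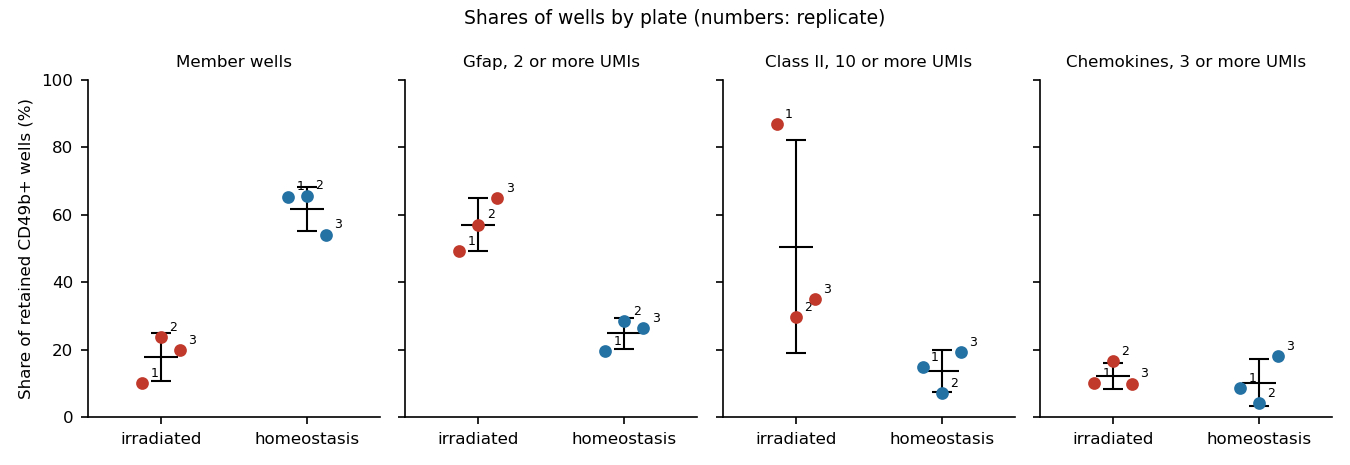
Share of retained CD49b+ wells (%) that were members, or that reached the Gfap, class II or chemokine limit, with 1 point per plate labelled by replicate, the mean (wide bar) and SD (n = 3 plates). Member wells made up 10.1 to 23.8% of irradiated plates and 54.2 to 65.7% of homeostasis plates, while the chemokine shares of the treatments overlapped.

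Plate and position numbers in the labels divide the plates into 3 sets of unstated meaning, of which only the first holds both treatments. Within it, irradiated plate 1 had 10.1% member wells and homeostasis plate 1 had 65.4%. The other irradiated plates form the second set and the other homeostasis plates the third, so beyond plate 1 the set and the treatment cannot be told apart. With the limits applied to wells thinned to 1000 UMIs, which made 325 wells members, the shares averaged 61.9% and 86.2%, and with no Gfap or chemokine UMI and fewer than 5 class II UMIs, which left 58 wells, 2.47% and 23.5%.

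The second comparison asked whether member wells differ from other wells in genes the rule did not use. Nearly no gene passed the test: in edgeR's quasi-likelihood test on plate sums of 5 plates, with the plate as a block and Benjamini-Hochberg adjustment, 1 of 1819 genes was higher in member wells (0.055% of genes tested) and 0 were lower (0%). At an unadjusted p under 0.05 there were 82 genes (4.51%), and DESeq2 called 0. Irradiated plate 1, with 7 member wells, was left out of this test. The median standard error of a log2 fold change was 0.268, which sets the size of difference that could be seen.

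The 1 called gene, C130093G08Rik, had a log2 fold change of 1.33 ± 0.274 (SE, edgeR, adjusted p = 0.0487) and was higher in member wells on 5 of 6 plates. Part of its UMIs lay at 1 well position, namely 35 of 155 in retained CD49b+ wells (22.6%) and 35 of 87 in member wells. In the 5 retained wells with the same barcode it had 5 to 10 UMIs, against a median of 0 and at most 3 in the other 431 wells, and all 5 of those wells were members. Across the series 20 genes had 1 barcode holding the highest well of a plate on at least 8 of 12 plates or 5 of 6 CD49b+ plates, with 10 barcodes in all, none of them a gene of the rule. The barcodes of the 6 genes that bear on the calls are printed because the calls rest on them, all in capitals since the whole barcode matters:
Sec61a1: GGCTCAAA
C130093G08Rik: GGCTCAAA
Ctcfl: GTTCCCAA
Lrp4: GCAGGTAA
Olfr1109: CCCATACT
Shank1: CTTGAGGA
Sec61a1 and C130093G08Rik share a barcode. With the tied UMIs set to 0 before summing, 0 of 1817 genes were called (82 at an unadjusted p under 0.05) and C130093G08Rik had a log2 fold change of 0.46.

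Sec61a1, a subunit of the channel that passes proteins into the endoplasmic reticulum, shows the size of the tie. Its wells with the barcode above held 119 to 228 UMIs on 5 plates, against a median of 11 and at most 93 in the other 431 retained CD49b+ wells, and that barcode held the highest Sec61a1 well of all 12 plates. All 5 wells were members, and Sec61a1 had a log2 fold change of 0.50 (adjusted p = 0.0549) between member and other wells. Ctcfl, a paralogue of CTCF normally restricted to the testis, had 103 to 218 UMIs in 6 wells of its barcode and at most 3 in 430 others. Of those 6 wells, 1 was a member.

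**Figure D3:**
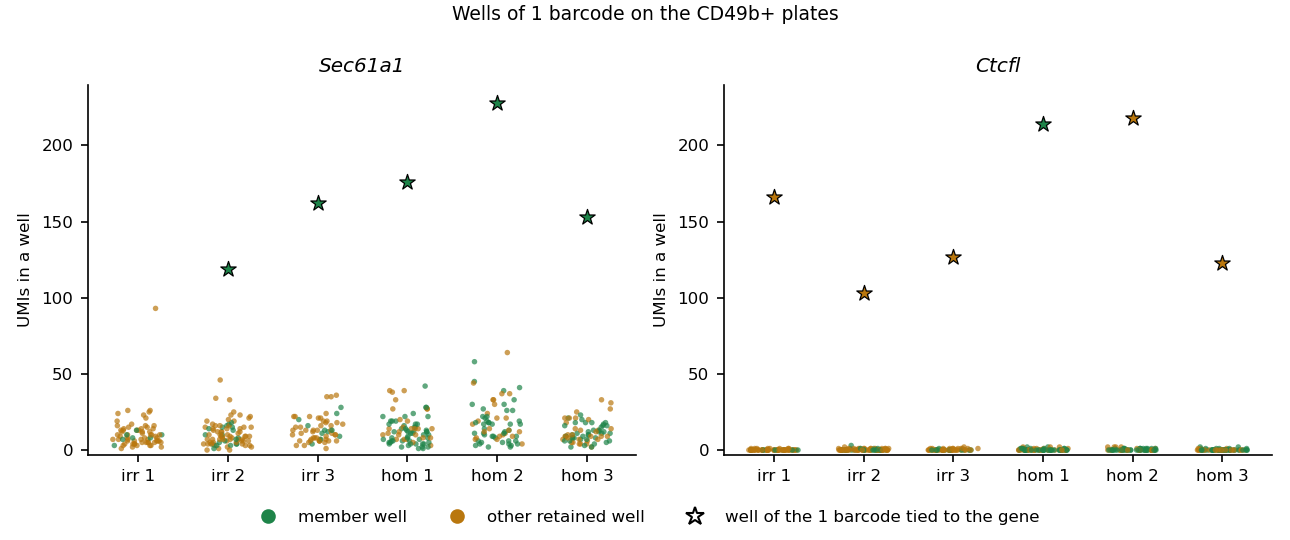
UMIs of Sec61a1 and Ctcfl in each retained CD49b+ well by plate (irr, irradiated; hom, homeostasis), coloured by member or other well, with stars for the wells of the 1 barcode tied to each gene. The starred wells hold 119 to 228 Sec61a1 and 103 to 218 Ctcfl UMIs, above every other well of their plates.

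No reactive gene outside the rule passed the test. Of 24 genes known from reactive glia, Gfap left out, 11 were tested, 0 were called, and 2 of the 11 fold changes were positive, with a median of -0.11 on the log2 scale against -0.00 over all genes tested. Serpina3n, a secreted protease inhibitor that reactive astrocytes induce strongly, had a log2 fold change of -0.18 ± 0.201 (SE, edgeR, adjusted p = 0.998). Vim, an intermediate filament partner of Gfap, averaged 1761 ± 432 CPM in member and 1758 ± 191 CPM in other wells (SD, n = 6 plates each). Cebpd, an inflammatory transcription factor, averaged 2372 ± 745 and 2410 ± 487 CPM. The low Gfap, chemokine and class II values were fixed by the rule, and none of the 11 tested reactive-glia genes beyond them was called.

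Partner genes of the class II pathway were tested in 3 cases, and none passed. H2-DMa and H2-DMb1, the chains of the chaperone that loads peptides onto class II, were lower in member wells on 6 of 6 plates, with log2 fold changes of -0.95 ± 0.348 and -0.94 ± 0.37 (SE, edgeR, adjusted p = 0.843 and 0.925). H2-DMa had 151, 146 and 38.2 CPM in irradiated and 110, 27.1 and 50.1 CPM in homeostasis member wells. On the same plates the other wells had 210, 210 and 121 CPM after irradiation and 216, 88.5 and 88.5 CPM in homeostasis. H2-DMa rested on 30 UMIs in member wells, and its annotation overlaps Brd2 on the opposite strand. Lgmn, a lysosomal protease of antigen processing, had a log2 fold change of 0.29 (adjusted p = 0.998).

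The 13 tested class I and immunoproteasome genes all had negative fold changes, with a median of -0.24 and none called. B2m, the common light chain, averaged 6366 ± 947 CPM in member wells and 6630 ± 565 CPM in other wells (SD, n = 6 plates each), and H2-K1 had a log2 fold change of -0.25 ± 0.116 (SE, edgeR, adjusted p = 0.998). When the rule was applied to thinned wells, 5 of 12 were positive and the median was -0.02. The 17 tested interferon-response genes had 7 positive fold changes and a median of -0.08.

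No glial identity gene passed the test. Of 29 identity genes 17 were tested and 0 called, 11 with a positive fold change and a median of 0.05. Apoe had 30612, 28072 and 24425 CPM in irradiated and 29261, 27999 and 30780 CPM in homeostasis member wells. Other wells had 24365, 21602 and 23955 CPM after irradiation and 29576, 27508 and 31421 CPM in homeostasis, so the homeostasis plates of both kinds of well covered the same range. Hes1 averaged 1406 ± 346 CPM in member wells and 1010 ± 206 CPM in other wells (SD, n = 6 plates each) and was higher in member wells on 5 of 6 plates, with a log2 fold change of 0.44 ± 0.145 (SE, edgeR, unadjusted p = 0.00499, adjusted p = 0.843). Sdc4, a cell-surface proteoglycan, averaged 1275 ± 391 and 1611 ± 473 CPM and was lower in member wells on 6 of 6 plates, with a log2 fold change of -0.36 ± 0.133 (adjusted p = 0.843). Neither passed the adjustment.

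Lists of stress and respiratory chain genes had medians near 0, while the glycolysis list lay lower. The 17 tested immediate early genes, which respond to tissue dissociation, had a median of 0.09 with 14 positive, and Fos averaged 5793 ± 1045 CPM in member wells and 5346 ± 951 CPM in other wells (SD, n = 6 plates each). The 9 heat shock genes had a median of 0.10, the 20 respiratory chain genes one of -0.01 and the 9 unfolded protein genes one of -0.10. All 5 tested glycolysis genes had negative fold changes, with a median of -0.29. None of these genes was called. Against wells with 10 or more class II UMIs alone, 0 of 876 genes were called (57, or 6.51%, at an unadjusted p under 0.05), on the plates with enough such wells. Against wells over the Gfap limit and under the class II limit, 1 of 967 was called (0.103%, with 5.58% at an unadjusted p under 0.05), which was the barcode-tied Sec61a1.

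**Figure D4:**
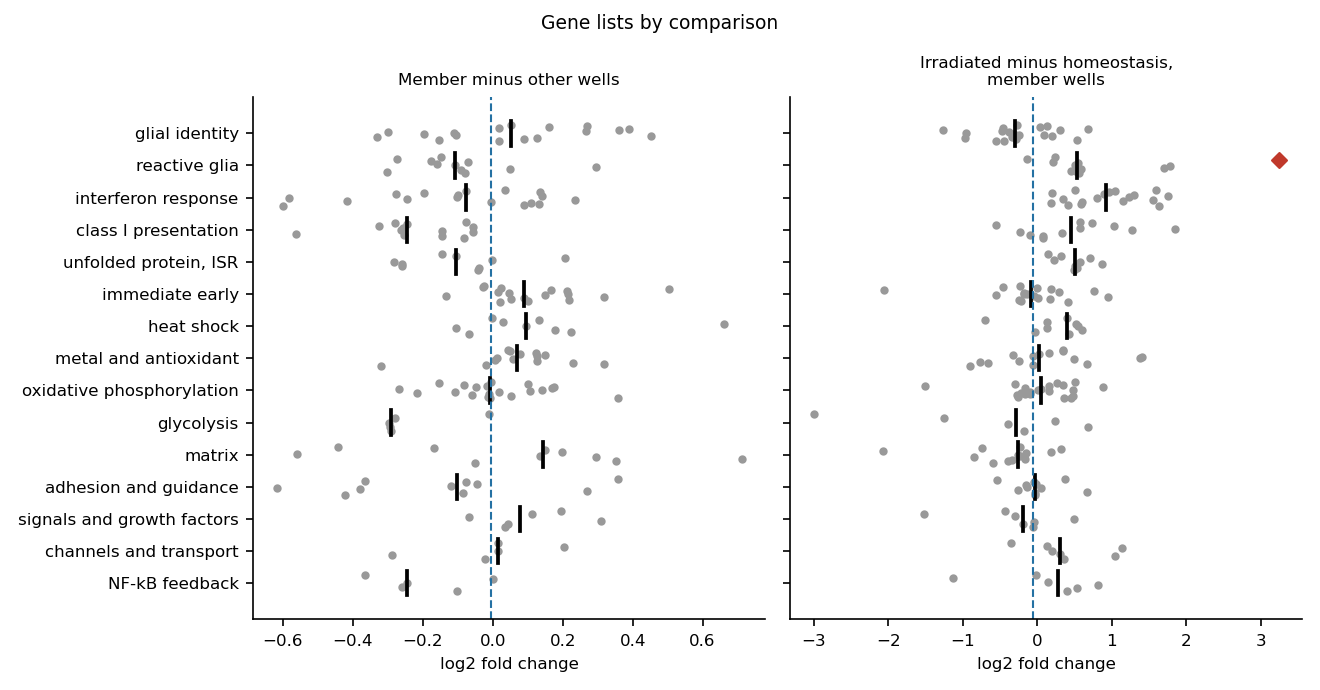
Log2 fold changes (edgeR, on plate sums) of the tested genes of 15 lists, for member minus other wells and for irradiated minus homeostasis member wells, with 1 point per gene, a bar at the list median, a dashed line at the median over all genes tested and a red diamond for a called gene. Serpina3n, at 3.24 on the right, is the single called gene of these lists, and all 18 interferon-response genes lie right of 0 there.

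The third comparison took member wells alone and set irradiated against homeostasis plates. In wells chosen to be low in Gfap, chemokines and class II, 1 of 2518 genes rose after irradiation (0.0397%) and 0 fell (0%), in edgeR's quasi-likelihood test of 2 irradiated plates with at least 10 member wells against 3 homeostasis plates. The unadjusted p was under 0.05 for 177 genes (7.03%), and DESeq2 called 1. With barcode-tied UMIs set to 0 it was again 1 of 2512 (0.0398%, with 7.09% at an unadjusted p under 0.05). The median standard error was 0.553 on the log2 scale. Irradiated plate 1 was not in this test, so no plate set in it held both treatments. The set and the treatment therefore cannot be told apart in any fold change of this comparison.

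The gene that rose was Serpina3n. It had 1361, 1459 and 1030 CPM in the member wells of irradiated plates 1, 2 and 3, against 210, 126 and 40.1 CPM in homeostasis. The groups did not overlap, and irradiated plate 1, which was not in the test, lay between the other irradiated plates. The log2 fold change was 3.24 ± 0.439 (SE, edgeR, adjusted p = 0.00704). Serpina3n lies on chromosome 12 at 104406729 to 104414329 on the plus strand (GRCm38) in a cluster of related genes; of its neighbours in that family, Serpina3i had 28, Serpina3f 12, Serpina3g 1, Serpina3k 1 and Serpina3m 0 UMIs over all retained CD49b+ wells, against 850 for Serpina3n.

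Single wells showed the same split. Serpina3n had at least 1 UMI in 5 of 7, 18 of 20 and 11 of 12 irradiated member wells, against 15 of 53, 11 of 46 and 4 of 39 in homeostasis. The median irradiated member well held 3, 3 and 2 UMIs on the 3 plates, the homeostasis median was 0 on each, and no member well held more than 7. Thinned to 1000 UMIs, 69.2% of irradiated and 11.6% of homeostasis member wells had a UMI, against 2.84% of CD49b- wells (87.2%, 21.7% and 11.4% without thinning). The irradiated other wells reached 71.8% and the homeostasis other wells 14.1%.

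The other wells gave similar levels, in a test that called 4 of 2099 genes (0.191%, with 6.72% at an unadjusted p under 0.05). Their Serpina3n stood at 1488, 1249 and 1271 CPM after irradiation and at 155, 251 and 111 CPM in homeostasis, with a log2 fold change of 3.00 ± 0.329 (SE, edgeR, adjusted p = 8.76e-05). The interaction, which tests whether the fold change differed between member and other wells, was 0.44 ± 0.42 (unadjusted p = 0.3, adjusted p = 0.999). Serpina3n was not called in member wells without homeostasis replicate 2 (log2 fold change 3.24, adjusted p = 0.439) or with the age at tamoxifen as a term (3.26, adjusted p = 0.498), at a fold change about as large. With no minimum of wells and the plate set as a term, the log2 fold change was 2.52 (adjusted p = 0.475).

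**Figure D5:**
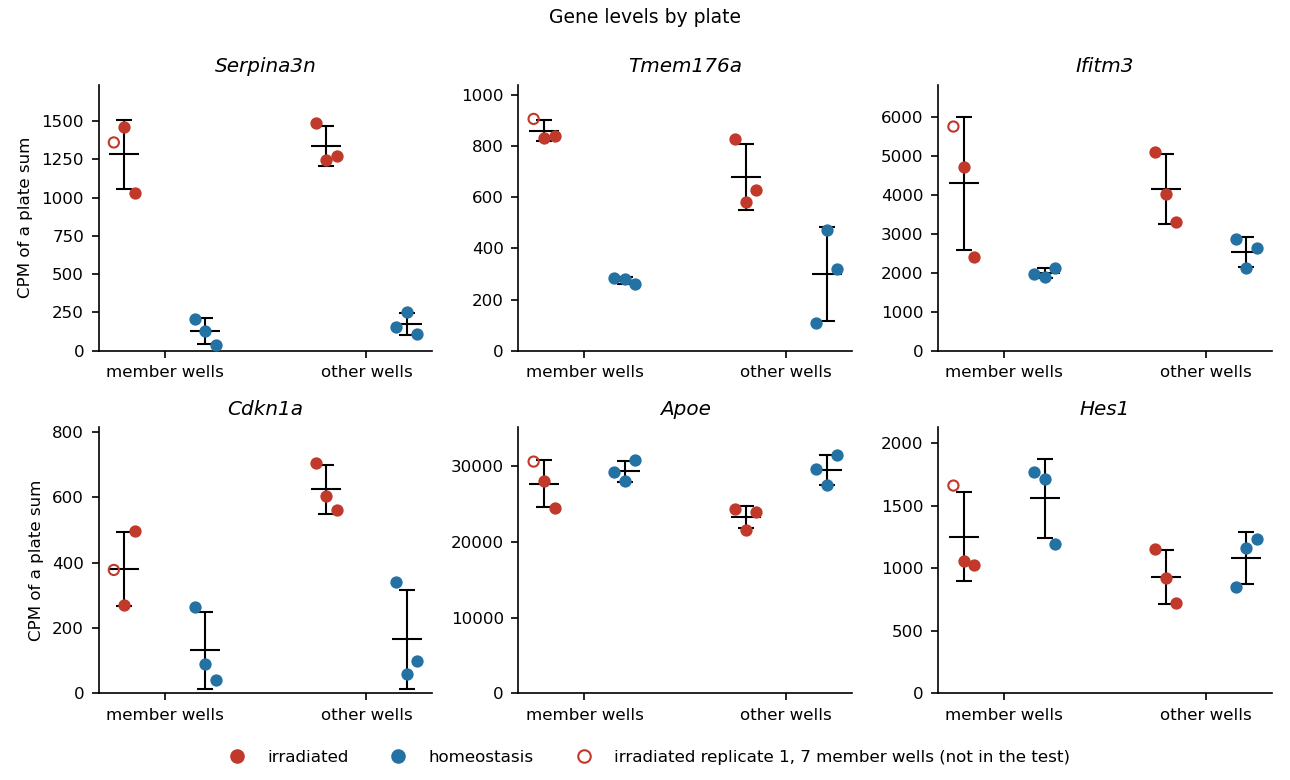
CPM of 6 genes in plate sums of member and other wells, irradiated left of homeostasis in each pair, with 1 point per plate, the mean (wide bar) and SD (n = 3). Serpina3n lies between 1030 and 1488 CPM in all irradiated sums and at or below 251 CPM in all homeostasis sums, while Apoe and Hes1 overlap between treatments in member wells; the open circle is irradiated replicate 1, left out of the test.

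Other genes with separate groups did not pass the adjustment over all genes; those of this paragraph were chosen after their values were seen. Tmem176a, a membrane protein of immune and epithelial cells, had 907, 834 and 840 CPM in irradiated and 283, 280 and 261 CPM in homeostasis member wells. Its log2 fold change was 1.55 ± 0.297 (SE, edgeR, adjusted p = 0.148). Among the alternatives for member wells, edgeR called it only with no minimum of wells (adjusted p = 0.0154) and with the thinned rule (adjusted p = 0.0256). DESeq2 did not call it. Its annotation overlaps Tmem176b on the opposite strand, and Tmem176a was also found in 25.6% of thinned CD49b- wells. Fcgr2b, the inhibitory receptor for IgG, had 151, 146 and 305 CPM against 18.3, 9.02 and 10 CPM, on 21 UMIs in all, with a log2 fold change of 3.88 ± 0.903 (adjusted p = 0.41). In other wells Fcgr2b was called, at 4.22 ± 0.662 (adjusted p = 0.00597).

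The values of 3 further genes, also chosen after they were seen, follow. Apod, a lipid carrier of glia, had 1965, 1584 and 1985 CPM in irradiated and 950, 794 and 722 CPM in homeostasis member wells, and its log2 fold change was 1.05 ± 0.266 (SE, edgeR, adjusted p = 0.41). Mt2, a metallothionein, had 1058, 959 and 2328 CPM against 666, 532 and 562 CPM, at 1.38 ± 0.338 (adjusted p = 0.41). Serping1, the inhibitor of complement C1, had 1814, 1313 and 611 CPM against 475, 433 and 522 CPM. Its fold change of 1.02 ± 0.331 in member wells (adjusted p = 0.528) stood beside 1.64 ± 0.306 in other wells (adjusted p = 0.0241), and the interaction was -0.71 ± 0.346 (unadjusted p = 0.0481, adjusted p = 0.999).

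Interferon-response genes all pointed the same way. Of 30 genes, 18 were tested, all 18 fold changes were positive with a median of 0.93, against -0.05 over all genes tested, and 0 were called. Ifitm3, which blocks viral entry, had 5745, 4710 and 2404 CPM in irradiated and 1954, 1895 and 2126 CPM in homeostasis member wells, with a log2 fold change of 0.81 ± 0.274 (SE, edgeR, adjusted p = 0.582). Iigp1, Bst2 and Ifit3 had log2 fold changes of 1.75, 1.63 and 1.56 with adjusted p-values of 0.528, 0.582 and 0.528. Without irradiated plate 2, whose retained CD49b+ wells all held UMIs of the neuropeptide gene Gal, 12 of 18 were positive and the median was 0.64, and the part of those UMIs in the list was not tested. That fit holds 1 irradiated plate, plate 3, which is assumed to vary like the homeostasis plates. With no minimum of wells and the plate set as a term, 9 of 15 were positive and the median was 0.07.

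Of 12 tested class I genes, 9 were positive with a median of 0.45, and 0 were called. With irradiated plate 3 alone against homeostasis, 6 of 13 were positive and the median was -0.06. Psmb8, a catalytic subunit of the immunoproteasome, had 454, 563 and 534 CPM in irradiated and 292, 262 and 221 CPM in homeostasis member wells (log2 fold change 1.03, adjusted p = 0.528). B2m had a log2 fold change of 0.08. The 3 tested class II pathway genes outside the rule, H2-DMa, H2-DMb1 and Lgmn, had 0.66, 0.64 and -0.00, and none was called.

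Reactive-glia genes other than Serpina3n stayed short of the threshold. Of 12 tested, 11 were positive with a median of 0.54 and 1 was called. Ggta1, a glycosyltransferase, and Gbp2, an interferon-induced GTPase, both listed among genes of reactive astrocytes, had log2 fold changes of 1.78 and 1.70 (adjusted p = 0.475 and 0.41), while Vim had 0.23 and Stat3 -0.14. The 9 unfolded protein genes were all positive with a median of 0.51, led by the chaperone Hspa5 at 0.87 ± 0.297 (SE, edgeR, adjusted p = 0.584), and the 9 heat shock genes had a median of 0.40.

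The p53 target Cdkn1a, which arrests the cell cycle after DNA damage, had 378, 271 and 496 CPM in irradiated and 265, 90.2 and 40.1 CPM in homeostasis member wells. The groups were barely separate, and the log2 fold change was 1.38 ± 0.617 (SE, edgeR, adjusted p = 0.7). Other wells had 706, 604 and 563 CPM against 340, 59 and 99.5 CPM. Of 18 p53 targets, 2 had enough UMIs for the test, and the second, Bax, which promotes apoptosis, had a log2 fold change of -1.63 (adjusted p = 0.732).

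No glial identity gene was called. Of 20 tested, 7 were positive with a median of -0.30, against 1173 of 2518 positive and a median of -0.05 over all genes tested. Ednrb, the endothelin receptor needed for the spread of enteric progenitors, had 302, 584 and 305 CPM in irradiated and 831, 803 and 1033 CPM in homeostasis member wells. The groups did not overlap, and the log2 fold change was -0.97 ± 0.337 (SE, edgeR, adjusted p = 0.606). All 4 marker genes had negative fold changes, from -0.21 for Apoe through -0.31 for Sox10 and -0.37 for Sparc to -0.63 for Hes1, with adjusted p-values of 0.7 to 0.921. Sparc had 3930, 3480 and 3702 CPM in irradiated and 4373, 4647 and 4343 CPM in homeostasis member wells, and 2614, 2728 and 3144 CPM against 4605, 4678 and 4955 CPM in other wells. The interaction for Sparc was 0.33 ± 0.19 (adjusted p = 0.999).

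Matrix genes had 2 of 13 positive and a median of -0.26, and the 18 immediate early genes a median of -0.09 with 7 positive. Col12a1, a fibril-associated collagen, had 529, 438 and 534 CPM in irradiated and 630, 758 and 702 CPM in homeostasis member wells. Atp1b2 and Fxyd3, subunits of the sodium pump, had log2 fold changes of 1.04 and 1.13 (adjusted p = 0.551 and 0.659), within a list of channels and pumps whose median was 0.30 with 6 of 7 positive. The annotation of Fxyd3 overlaps Lgi4 on the opposite strand. The metal and antioxidant list had 8 of 15 positive and a median of 0.03. None of these genes was called.

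The last test asked whether the irradiation effect differed between member and other wells. It also left out irradiated plate 1, so the plate set and the treatment cannot be told apart there either. Of 2814 genes, 1 was higher (0.0355%) and 1 lower (0.0355%), with 128 at an unadjusted p under 0.05 (4.55%), and DESeq2 called 0. They were Shank1, a scaffold of synapses, and Lrp4, a receptor of the neuromuscular junction. Both are among the barcode-tied genes printed above, with 94.4% and 81.4% of their UMIs in retained CD49b+ wells at 1 barcode. With the tied UMIs set to 0, both fell below the filter on low counts and were not tested. Of the 2807 genes tested then, 0 were called (136, or 4.85%, at an unadjusted p under 0.05). The median standard error of the difference was 0.703, so a gene had to differ widely to be called.

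Member wells also varied among themselves. With each well thinned to 1000 UMIs, the variance over the mean within plates had a median of 1.06 over 1974 genes, where 1 is the counting error alone. It was 2.98 for Btg2, 2.88 for Dnajb1, 2.62 for Ier2 and 2.59 for Dusp1, all genes of the early stress response, and 4.02 for Nfkbia, the inhibitor of NF-kB that NF-kB itself induces. The early genes Fos and Junb had lower values, 1.98 and 1.54. Rn18s-rs5, Elp6 and Vps8 had higher ones, 6.36, 5.34 and 4.12, so the highest values were not confined to early stress genes. Hes1 stood at 2.32 and Apoe at 2.34, while Sparc stood at 1.43 and Serpina3n at 1.34. Their means were 1.41, 28.9, 4.39 and 0.418 thinned UMIs a well, in the same order. The measure can grow with the mean, so it does not rank genes by relative spread. Thinned Hes1 ran up to 10 UMIs in a well.

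Gal UMIs were concentrated on 1 plate. Gal, which encodes galanin, had 335 UMIs over all 20 member wells of irradiated plate 2, at most 35 in a well, and 0 to 5 UMIs in the member wells of each other plate. The other wells of that plate held 5774 Gal UMIs in 64 of 64 wells, of which 2167 and 2428 lay in 2 wells of 12699 and 13170 UMIs. Snap25 had 2 UMIs in the member wells of that plate. The summed neuronal list ran over 572 to 7982 CPM in irradiated and 341 to 447 CPM in homeostasis member wells, and its part in the results that move with irradiated plate 2 was not tested.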

How the data were processed

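The deposited table held raw UMI counts per gene and well for 50508 gene models, deposited by the authors. The submitters' processing notes list featureCounts 1.5.3, STAR 2.5.3a and, without roles, the builds GRCh38 and GRCm38. How molecules were collapsed is not given in the sources used here. Cells were lysed and their RNA copied inside the sorted wells, and Nextera XT was used for the libraries, per the labels' protocols. Gene positions came from GENCODE vM21 (GRCm38).

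The counts of member and of other wells were summed per plate. Levels are CPM of all UMIs of a sum. edgeR 4.0.16 (R 4.3.3; TMM scaling, filterByExpr, quasi-likelihood F test) was fitted to the sums of plates with at least 10 wells of a kind, with Benjamini-Hochberg adjustment over all genes tested and a threshold of 0.05; the 8 rule genes and the mitochondrial genes stayed in the fit and were not called. Standard errors were the log2 fold change over the square root of F. Member against other wells had the plate as a block, since both kinds came from 1 pool; treatments came from different mice, and replicate numbers, given in accession order, do not pair them, though plate 1 of each treatment falls in the same plate set. Shares were compared with exact permutation tests (scipy 1.17.1, Python 3.11.15). Each fit was tested on simulated counts, with 100 genes changed 4-fold and 100 changed 2-fold. Member against other wells recovered 87 and 72, with 10 false calls. The irradiation fit in member wells recovered 62 and 10, with 5 false calls. The fit of the difference recovered 41 and 4, with 1 false call. The simulated counts held no gene differences between plates beyond a common dispersion trend. Thinning drew 1000 UMIs from a well at random.

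The members, the gene lists and the tests were chosen with earlier results of these data known. Named genes were those past the threshold with groups that do not overlap, up to 4 members of each list, a fixed set of markers and the rule genes; other genes, among them C130093G08Rik, Shank1, Lrp4 and the members named from lists without a call, were chosen after their values were seen. Alternatives were DESeq2 1.42.0, other filters on genes and wells, other rules of membership, batch terms and leaving out plates. Overlapping genes on opposite strands cannot be told apart, since the counting is not stated to use strand.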

Additional observations from a re-analysis of the deposited data

Results flagged for a closer look

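In edgeR's test of the difference in irradiation effect between member and other wells, 2 genes were called, both tied to a barcode. Shank1 had a difference of 8.05 on the log2 scale (adjusted p = 0.00142), and Lrp4 one of -4.80 (adjusted p = 6.45e-05). Shank1 had 0, 354 and 38.2 CPM in irradiated and 0, 9.02 and 0 CPM in homeostasis member wells, and Lrp4 had 0, 62.5 and 76.3 CPM against 393, 704 and 10 CPM. The barcode CTTGAGGA held the highest Shank1 well on 9 of 12 plates and GCAGGTAA the highest Lrp4 well on 12 of 12, with 8 to 19 Shank1 and 32 to 70 Lrp4 UMIs in the retained CD49b+ wells concerned. Of those 5 Shank1 wells 1 was a member, and of the 5 Lrp4 wells 2 were. These member wells held 17 of the 19 Shank1 UMIs and 108 of the 127 Lrp4 UMIs of all member wells. With the tied UMIs set to 0, both genes fell below the filter on low counts. They were then not tested, so that fit cannot say whether their remaining UMIs differed.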

How the results depend on the processing

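The difference in member share kept its sign throughout, from -47.6 to -39.9 percentage points with 1 plate left out. Member against other wells gave 1 called gene; the count was 5 with no filter on low counts, 3 with other wells under 10000 UMIs or with the rule and mitochondrial genes in the adjustment, 0 to 3 with 1 plate left out (3 without homeostasis replicate 1), and 0 with DESeq2, no minimum of wells, the thinned rule, at least 2000 UMIs and under 10% mitochondrial UMIs, class II wells alone, no replicate block (the plate block left out) or tied UMIs removed. Irradiated against homeostasis member wells gave 1; the count was 14 with no filter, 7 with the thinned rule, 6 with at least 2000 UMIs, 2 with no minimum of wells, with thinned wells or with 4 group means, 0 to 11 with 1 plate left out (0 without homeostasis replicate 2, 11 without irradiated replicate 3; leaving out an irradiated plate here leaves 1, assumed to vary like the homeostasis plates), and 0 with the age term or with no minimum and the plate set term. All retained wells gave 9 and other wells 4. The difference of effects gave 2; the count was 7 with no filter, 5 with at least 2000 UMIs, 1 with the thinned rule, 1 to 6 with 1 plate left out (1 without homeostasis replicate 1, 6 without irradiated replicate 2 or 3), and 0 with DESeq2, no replicate block or tied UMIs removed. Of the values for single genes, 21 lost the threshold, 59 gained it and no gene called in the main comparisons changed sign. Gm37895, not called there, was called at -1.60 with no filter and at 8.31 without homeostasis replicate 1. The causes were not tested. The stricter rule left under 10 member wells on irradiated plates, so its gene tests were not run, and the plate set alone could not be fitted.

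Depth and the number of plates limit the gene tests: irradiated member sums held 13230 to 47983 UMIs, 2 irradiated plates entered the gene tests, and the median standard error there was 0.553 on the log2 scale. The alternatives that removed tied UMIs, took class II or Gfap wells alone, took other wells for members, added rule genes to the adjustment, or joined no minimum with the plate set were chosen after seeing the data.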

Other observations

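Further values stood out among member wells, chosen after they were seen. Cd14, the lipopolysaccharide co-receptor, had the largest variance over mean of the 1974 genes, 16.8 in thinned wells. It had 83 UMIs in 11 of 39 member wells of homeostasis plate 3, at most 42 in a well, 16 in 6 of 53 of homeostasis plate 1, and 0 to 4 in the member wells of each other plate. None of Adgre1, Csf1r, C1qa or Ptprc had a UMI in a member well.

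Grp, which encodes gastrin-releasing peptide, had 12 UMIs in 4 of 7 member wells of irradiated plate 1 and 0 or 1 in member wells of every other plate. The other wells of that plate held 256 Grp UMIs in 52 of 62 wells, and 1 of them, a well with 24748 UMIs in all, held 143. Resp18, a protein of neuroendocrine granules, had 8 UMIs in 6 of 7 member wells of irradiated plate 1 and 14 in 10 of 20 of irradiated plate 2, and 0 elsewhere in member wells. The gene model Gm37895 had 2268, 479 and 687 CPM in irradiated member wells and 3990, 0 and 0 CPM in homeostasis member wells, so plate 1 was high in both treatments.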
